A study of Mus musculus with 139 samples.

Results

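The T cell receptor passes a signal into the cell through the CD3 chains, the coreceptors CD4 and CD8, the kinases Lck and Zap70 and the costimulatory receptor CD28. The 10 genes described here encode those proteins: Cd3d, Cd3e, Cd3g and Cd247 (the CD3 and zeta chains), Cd4, Cd8a and Cd8b1 (the coreceptors), Lck and Zap70 (the kinases) and Cd28. They were taken by name, and each was read from the array feature paired with its symbol alone, the brightest where a gene had several. Of the 10 genes, 8 had such a feature, among 22180 genes so measured. Cd247 and Lck are not analysed here.

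Lungs of male C57BL/J6 mice, 7 weeks old at arrival, were profiled 1, 6 and 12 months after a single 50 µL pharyngeal aspiration. The groups are crocidolite asbestos (120 µg), multiwalled carbon nanotubes (MWCNT) at 1, 10, 40 or 80 µg, and dispersion medium (DM), the vehicle that all suspensions shared. Each of the 18 groups held 8 mice, except that the crocidolite group had 5 after 1 month and 7 after 12 months, and the 1 µg group had 6 after 12 months. Whole lung RNA was labelled and hybridised to Affymetrix arrays, and the study's text asks how lung gene expression changes with increasing MWCNT dose.

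A T cell recognises a peptide on an MHC molecule, the coreceptor brings Lck to the complex, Lck phosphorylates the CD3 chains, and Zap70 binds there and starts the downstream cascade. CD4 marks helper and regulatory T cells, and the CD8 alpha and beta chains together mark cytotoxic T cells. In the lung these cells lie mostly in the airway wall and interstitium, and regulatory T cells, defined by the transcription factor Foxp3, restrain inflammation and take part in repair.

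The values are log2 intensities after RMA, so 1 unit is a doubling. The 12 lung marker genes lay between the 72.8th (Hopx) and the 100th percentile of genes in mean level (Sftpc, Scgb1a1). Of 139 arrays, 8 correlated below 0.969 with the other arrays, 16 had Acta1 (muscle) or Krt4 (squamous epithelium) over 3 units above the median, and 2 had the thymocyte genes Rag2, Dntt and Ptcra over 1 unit above it on average. Those 2 were crocidolite replicate 1 at 6 months and 40 µg replicate 4 at 1 month. The word replacement stands, unexplained, in the array titles of 38 mice, and Cd3e was 0.25 ± 0.07 (SE) log2 units higher there (limma adjusted p = 0.0118), while 8.55% of all genes passed that test. At 1, 6 and 12 months the word stands for 4, 1 and 3 of 8 DM mice. For mice given 80 µg it stands for 3, 2 and 5 of 8. For crocidolite it stands for 3 of 5, 0 of 8 and 5 of 7 mice, so sets split by it were small.

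Over the 15 comparisons of an exposed group with DM of the same time, the CD8 chains were lower with crocidolite and Cd3d was lower with 80 µg MWCNT at 12 months, and no member was higher past the test. The test was limma's moderated test in 1 model over all groups, with Benjamini-Hochberg adjustment over 22180 genes and calls at an adjusted p under 0.05. In these bulk samples fewer T cells and less RNA per T cell cannot be told apart. With crocidolite at 1 month 2 of 8 members were lower (2.83% of all genes were lower and 2.93% higher), all 8 lay below 0, and their median difference was -0.32 against -0.01 for all genes. At 12 months 1 of 8 was lower with it (2.16% of all genes lower, 4.31% higher), and at 6 months 0 of 8 (2.23% lower, 1.45% higher). At 1, 6 and 12 months 3, 3 and 4 members had an unadjusted p under 0.05, as did 16.6%, 15.1% and 17.4% of all genes.

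With 80 µg MWCNT, 0 of 8 members passed at 1 month (0.108% of all genes lower, 1.69% higher) and 0 of 8 at 6 months (0.131% lower, 0.803% higher). An unadjusted p under 0.05 was reached by 0 and 2 members, and by 10.1% and 8.38% of all genes. At 12 months 1 of 8 was lower (0.018% of all genes lower, 0.158% higher), with all 8 below 0 and a median of -0.42 against 0.01 for all genes. An unadjusted p under 0.05 was reached there by 6 of 8 members and 10.8% of all genes. With 40 µg at 12 months 0 of 8 passed (0.00902% lower, 0.0271% higher), although all 8 again lay below 0. There 4 members had an unadjusted p under 0.05, as did 11.8% of all genes. Both 12-month comparisons share the same 8 DM mice. In the 8 comparisons at 1 and 10 µg, and at 40 µg at 1 and 6 months, 0 of 8 members reached an unadjusted p under 0.05, as 1.97% to 8.46% of all genes did.

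**Figure D1:**
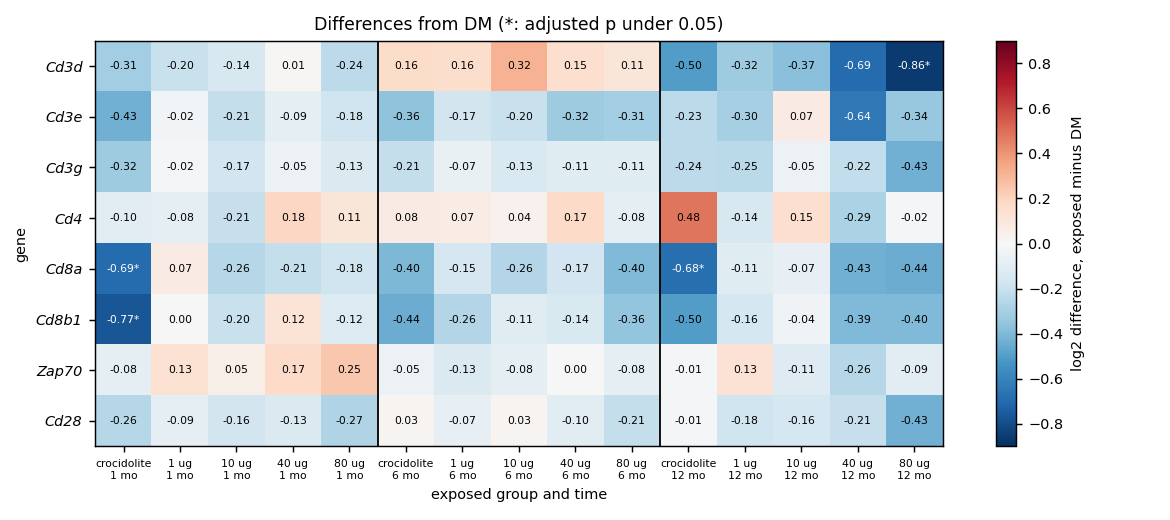
Log2 differences from DM of the same time for 8 genes (rows) in 15 comparisons (columns, crocidolite and then MWCNT by dose, at 1, 6 and 12 months), with asterisks at an adjusted p under 0.05. The 4 marked cells are Cd8a (-0.69) and Cd8b1 (-0.77) at 1 month and Cd8a (-0.68) at 12 months in the crocidolite columns, and Cd3d (-0.86) at 80 µg and 12 months.

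The 3 CD3 genes lie together on chromosome 9, and the starts of Cd3d and Cd3g are 1355 bases apart and point away from each other. Their windows run from 250 bases before to 50 bases after the start (RefSeq, GRCm38.p6, 7 of the 10 genes matched). They are shown because Cd3d alone of these neighbours passed a test in the fit over all mice. Cd3e and Cd3g passed in some alternative fits, given below. Cd3d is at chr9:44981536-44981835 on the plus strand, Cd3g at chr9:44980382-44980681 and Cd3e at chr9:45009562-45009861, both on the minus strand. Capitals mark 4 short cores searched on either strand. The core of Ets factors was AGGAAG and that of Runx factors was TGTGGT. For GATA factors it was AGATAA, and for the Tcf and Lef factors it was CTTTGA. No marked cores overlap in these windows.
Cd3d: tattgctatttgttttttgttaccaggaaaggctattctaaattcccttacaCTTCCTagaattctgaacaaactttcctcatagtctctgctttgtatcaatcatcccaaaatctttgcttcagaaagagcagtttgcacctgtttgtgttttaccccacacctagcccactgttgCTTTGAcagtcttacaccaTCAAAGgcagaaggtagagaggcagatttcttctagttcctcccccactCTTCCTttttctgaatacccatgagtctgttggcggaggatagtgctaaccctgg
Cd3g: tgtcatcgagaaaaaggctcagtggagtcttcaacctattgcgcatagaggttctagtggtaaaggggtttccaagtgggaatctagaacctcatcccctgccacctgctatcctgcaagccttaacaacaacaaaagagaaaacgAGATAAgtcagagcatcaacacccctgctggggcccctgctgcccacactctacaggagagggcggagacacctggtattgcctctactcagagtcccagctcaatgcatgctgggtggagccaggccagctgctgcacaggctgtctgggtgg
Cd3e: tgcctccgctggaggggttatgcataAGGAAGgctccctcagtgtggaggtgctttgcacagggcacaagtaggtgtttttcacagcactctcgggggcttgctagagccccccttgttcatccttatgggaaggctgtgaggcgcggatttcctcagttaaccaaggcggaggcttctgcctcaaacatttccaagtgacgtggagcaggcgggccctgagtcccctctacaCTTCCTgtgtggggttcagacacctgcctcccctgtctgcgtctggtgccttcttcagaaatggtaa
Cd3d held 2 Ets and 2 Tcf/Lef cores, Cd3e held 2 Ets cores and Cd3g held 1 GATA core. Among 32817 promoters of that length, 35.4% held the Ets core, 16.8% the Runx core, 11.2% the GATA core and 16.0% the Tcf/Lef core. A match is a description of letters and not of a bound site.

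Cd3d encodes the CD3 delta chain. Its mean level over all mice was at the 42.6th percentile of genes, below Cd3g (72nd) and Cd3e (85.4th). At 4.17 it lay within the range of the array medians (4.01 to 4.34). The spread of Cd3d within groups was at the 82.7th percentile of genes. At 12 months its level ran over 3.44, 3.76 and 4.82 (lowest, median, highest) in 80 µg lungs and over 3.91, 4.93 and 5.19 in DM lungs, and 5 of the 8 exposed mice lay below every DM mouse. The means were 3.88 ± 0.43 in 80 µg lungs and 4.75 ± 0.44 in DM lungs (SD, n = 8 each), a difference of -0.86 ± 0.19 (SE; limma adjusted p = 0.019). The groups overlap because DM replicate 2 was low at 3.91 and 80 µg replicate 6, at 4.82, stood apart from the rest of its group. Cd3d was also lower in 40 µg lungs, at 4.05 ± 0.62 against 4.75 ± 0.44 in DM lungs, but that difference of -0.69 did not pass (adjusted p = 0.12). In crocidolite lungs at 12 months it was 4.24 ± 0.40 against 4.75 ± 0.44 in the same DM lungs, a difference of -0.50 ± 0.20 that did not pass (adjusted p = 0.13). Without DM replicate 2 that crocidolite difference was -0.62 and passed (adjusted p = 0.045), as it did without the arrays of low correlation (adjusted p = 0.0264) and without those with high Acta1 or Krt4 (adjusted p = 0.0491). The Cd3d slope at 12 months over DM, taken as dose 0, and the 4 MWCNT doses was -0.12 ± 0.03 per unit of log2(dose + 1) (adjusted p = 0.00535). Of all genes 0.613% had a called negative slope and 0.591% a called positive one, and Cd3d was the 1 of 8 members called. All 8 member slopes lay below 0, and 6 had an unadjusted p under 0.05, as did 17.8% of all genes. The Cd8a slope was -0.07 (adjusted p = 0.102). It passed with array weights (adjusted p = 0.0347), and without DM replicate 2, the arrays of low correlation or those with high Acta1 or Krt4.

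The DM lungs at 12 months, which enter all of these differences and the slope, had the highest Cd3d mean of all 18 groups. Set against DM at 6 months (3.94 ± 0.48, n = 8) the 12-month DM lungs were 0.80 ± 0.19 higher (adjusted p = 0.0396; 0.203% of all genes were lower and 0.0361% higher in that comparison), a call that leaving out any of 10 of the 16 mice ended, with values of 0.71 to 0.85. The 80 µg effect at 12 months minus that at 1 month was -0.62 ± 0.27 (adjusted p = 0.577), so a change of the effect with time was not shown. Leaving out any of 4 mice (80 µg replicates 1 and 8, DM replicates 4 and 6) ended the 12-month call, with Cd3d at -0.83 to -0.80. Within the arrays without the word replacement in their titles it was -0.80 (adjusted p = 0.122), and within those with it -0.73 (adjusted p = 1). Both sets were small, as the word stood for 5 of 8 mice given 80 µg and 3 of 8 DM mice. The 12-month slope was also not called within either set (-0.11 and -0.09).

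Cd3e, the CD3 epsilon chain that every T cell receptor needs, did not pass the test in any comparison of the fit over all mice. With crocidolite at 1 month it was -0.43 ± 0.19 (adjusted p = 0.191), and -0.46 ± 0.15 with accession order as a spline (adjusted p = 0.0471). Its 12-month slope, -0.06 ± 0.02 per unit (adjusted p = 0.137), also passed with the spline (adjusted p = 0.0348). In 40 µg lungs at 12 months it ran over 6.43, 7.18 and 7.96 and in DM lungs over 7.22, 7.81 and 8.33, and 4 of 8 exposed mice lay below every DM mouse. The difference was -0.64 ± 0.16 and did not pass (adjusted p = 0.0736). It passed under array weights (-0.74, adjusted p = 0.00901) and with the word in the title as a covariate (-0.67, adjusted p = 0.0365). In 80 µg lungs at that time the difference was -0.34 ± 0.16 (adjusted p = 0.435), so the values did not follow dose in order.

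Cd3g, the CD3 gamma chain, ran over 6.11, 6.62 and 6.87 in 80 µg lungs at 12 months and over 6.10, 7.10 and 7.31 in DM lungs, a difference of -0.43 ± 0.15 (adjusted p = 0.234). DM replicate 2 lay at 6.10 and stood apart from the other 7 DM mice. Its array was among those of low correlation, and without all of those Cd3g was -0.56 ± 0.14 with 80 µg (adjusted p = 0.0288). Within the arrays without the word replacement it was -0.81 ± 0.21 (adjusted p = 0.0299), so that there Cd3g and not Cd3d was the 1 member called. That set was small, as 5 of 8 mice given 80 µg and 3 of 8 DM mice had the word. The DM lungs at 12 months were 0.49 ± 0.15 above those at 1 month (adjusted p = 0.0867), and 0.62 ± 0.15 above without that mouse (adjusted p = 0.0124).

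**Figure D2:**
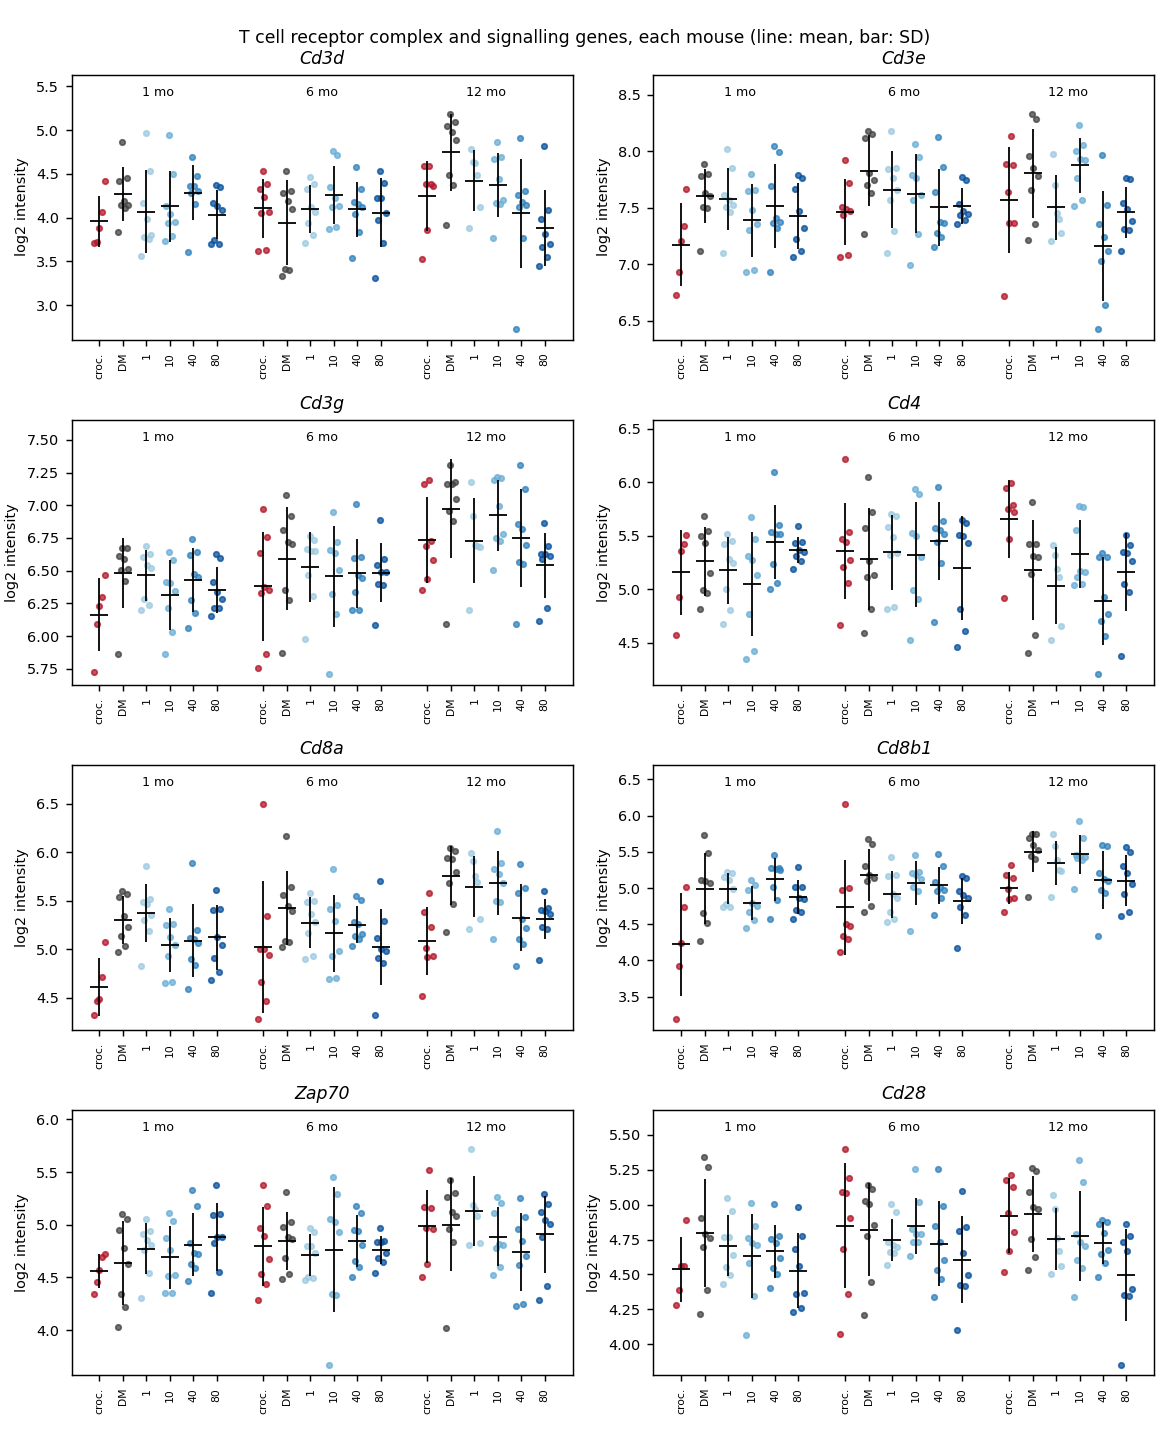
Log2 intensity of 8 genes in every mouse, in 3 blocks for 1, 6 and 12 months, with crocidolite, DM and MWCNT at 1, 10, 40 and 80 µg from left to right; lines are means and bars SD. Cd8a and Cd8b1 are lowest with crocidolite at 1 month (means 4.61 and 4.22), and Cd3d has its highest mean (4.75) in DM and its lowest (3.88) with 80 µg, both at 12 months.

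Cd8a encodes the CD8 alpha chain. In crocidolite lungs at 1 month the 5 mice had 4.32, 4.46, 4.48, 4.71 and 5.08, and the 8 DM mice ran over 4.97, 5.29 and 5.60. The 4 lowest crocidolite mice lay below every DM mouse, and the groups overlap through the highest. The difference was -0.69 ± 0.20 (0.619-fold; adjusted p = 0.0173). Its promoter window is shown because Cd8a is the member called at both 1 and 12 months, at chr6:71373177-71373476 on the plus strand (GRCm38.p6), and it held none of the 4 cores.
Cd8a: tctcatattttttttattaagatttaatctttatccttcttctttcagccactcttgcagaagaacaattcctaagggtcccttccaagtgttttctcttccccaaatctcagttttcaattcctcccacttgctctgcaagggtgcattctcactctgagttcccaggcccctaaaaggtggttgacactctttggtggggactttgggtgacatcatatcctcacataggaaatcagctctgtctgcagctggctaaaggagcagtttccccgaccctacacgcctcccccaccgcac
No match says only that those letters are not in this window.

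At 12 months Cd8a ran over 4.51, 5.01 and 5.58 in 7 crocidolite lungs and over 5.17, 5.86 and 6.05 in 8 DM lungs, and 4 crocidolite mice lay below every DM mouse. The difference was -0.68 ± 0.18 (0.626-fold; adjusted p = 0.00782). It held in 28 of 30 alternative fits, between -0.76 and -0.55, and was lost in 2 small subsets. These were the arrays without the word in the title (-0.69, adjusted p = 0.263) and those with it (-0.55, adjusted p = 0.298). The title word stood for 5 of 7 crocidolite and 3 of 8 DM mice. The crocidolite effect on Cd8a at 12 months minus that at 1 month was 0.02 ± 0.27 (95% interval -0.51 to 0.55). The DM lungs at 12 months, which enter the 12-month difference, had the highest Cd8a mean of all 18 groups (5.76). The DM means at 1 and 6 months were 5.30 and 5.42, and the 12-month crocidolite mean was 5.08. The same 12-month DM lungs also had the highest means of Cd8b1, Cd3g and Cd28.

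At 6 months Cd8a ran over 4.28, 4.97 and 6.50 in crocidolite lungs and over 5.03, 5.42 and 6.17 in DM lungs. The difference of -0.40 ± 0.17 did not pass (adjusted p = 0.225), although 6 of 8 crocidolite mice lay below every DM mouse. With 80 µg MWCNT at 6 months Cd8a also differed by -0.40 ± 0.17 (adjusted p = 0.435), with 5 of 8 exposed mice below every DM mouse. The highest crocidolite mouse was replicate 1, whose array carried the thymocyte genes, with Dntt, an enzyme of developing lymphocytes, at 5.15 against at most 2.23 in the other 7. Without it Cd8a was -0.61 ± 0.17 (adjusted p = 0.0195) and Cd8b1 -0.65 ± 0.17 (adjusted p = 0.0177). In that mouse Cd4 stood at 6.22, the highest of its group, and the part of thymocyte RNA in these values was not tested.

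Cd8b1, the CD8 beta chain that pairs with alpha on most cytotoxic T cells, was the other member called with crocidolite. In crocidolite lungs at 1 month the 5 mice had 3.19, 3.93, 4.24, 4.73 and 5.01, and DM lungs ran over 4.26, 5.09 and 5.73, with 3 of 5 crocidolite mice below every DM mouse. The difference was -0.77 ± 0.20 (0.586-fold; adjusted p = 0.00826). At 12 months it was -0.50 ± 0.19 and did not pass (adjusted p = 0.0901), and at 6 months -0.44 ± 0.18 (adjusted p = 0.181). The 12-month difference passed with array weights (-0.605, adjusted p = 0.00866) and in the groups alone (adjusted p = 0.0379). It also passed without DM replicate 2 (adjusted p = 0.0384) and without the arrays of low correlation (adjusted p = 0.0161). With MWCNT the CD8 chains lay below 0 as well without passing. At 12 months Cd8a differed by -0.44 with 80 µg and -0.43 with 40 µg (adjusted p = 0.32 and 0.289), and Cd8b1 by -0.40 and -0.39 (adjusted p = 0.405 and 0.354). The 1-month calls of Cd8a and Cd8b1 were both lost without crocidolite replicate 4 (-0.655 and -0.51) and without replicate 5 (-0.66 and -0.70), and that of Cd8a also without replicate 3 (-0.62). Replicates 4 and 5 were arrays of low correlation, and without all such arrays Cd8a was -0.60 (adjusted p = 0.256) and Cd8b1 -0.33 (adjusted p = 0.707).

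Cd4, the coreceptor for MHC class II, was not called in any comparison. With crocidolite at 12 months it ran over 4.92, 5.75 and 6.00 in exposed lungs and over 4.41, 5.31 and 5.82 in DM lungs, a difference of 0.48 ± 0.20 that did not pass (adjusted p = 0.161). At 1 and 6 months the crocidolite differences were -0.10 ± 0.22 and 0.08 ± 0.19, and the 12-month effect minus the 1-month effect was 0.58 ± 0.30 (adjusted p = 0.773). Cd8a minus Cd4 within a mouse was lower in crocidolite lungs than in DM lungs by a mean of 0.59 at 1 month, 0.48 at 6 months and 1.15 at 12 months, a pair chosen after its values were seen and given with no test. The crocidolite mice below every DM mouse in that difference numbered 3 of 5 at 1 month, 1 of 8 at 6 months and 6 of 7 at 12 months. Among the MWCNT groups the shift against DM ran from -0.43 (80 µg at 12 months) to 0.16 (1 µg at 1 month), and was -0.40 with 40 µg at 1 month.

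Zap70, the kinase that binds phosphorylated CD3 chains, and Cd28, the receptor for the costimulatory ligands, were not called in any comparison. Zap70 differed from DM by -0.26 to 0.25 over the 15 comparisons. Cd28 was -0.43 ± 0.14 with 80 µg at 12 months (adjusted p = 0.195), where 4 of 8 exposed mice lay below every DM mouse. Between 80 µg and crocidolite 0 of 8 members passed at any time. At 1, 6 and 12 months 2, 0 and 2 members had an unadjusted p under 0.05 (10.2%, 4.64% and 12.9% of all genes). Past the adjusted test 0.0541% of all genes were lower and 0.0361% higher with 80 µg at 1 month. After 6 months the shares were 0.0271% lower and 0% higher, and after 12 months 0.83% lower and 0.149% higher. Cd28 was 0.42 ± 0.15 lower with 80 µg than with crocidolite at 12 months (adjusted p = 0.171), with doses of 80 and 120 µg.

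In level, only Cd8a and Cd8b1 had a gap between neighbouring groups above the pooled SD, at the low end, where crocidolite at 1 month lay 0.41 and 0.51 below crocidolite at 6 months (pooled SD 0.35 and 0.36). For the other 6 genes no neighbours in the order of 18 groups differed beyond that spread. The 18 group means spanned 0.43 (Cd28) to 1.28 (Cd8b1) units.

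Across mice, after group means were subtracted, the members correlated weakly (28 pairs over the mice of all 18 groups, median r = 0.32; genes of 1 array share its quality and tissue makeup). Cd8a and Cd8b1 had the highest r (0.67), followed by Cd3g and Cd8b1 (0.63). Cd3d and Cd3e, chains of 1 complex, had an r of 0.13, and Zap70 and Cd28 of 0.10. Likeness to Cd3e was ranked among non-member genes, passing over predicted ones (Gm and a number, or names ending in Rik). Of the genes so ranked, those most like Cd3e were Trav9d-3, a T cell receptor alpha variable segment (r = 0.73), Sh3bgrl3 (0.69), Lmf2, Rras, Trp53inp2, Scamp3, Midn, Ly6e, Septin1 and Tapbp (0.59 to 0.62). Over the 18 group means they were Dusp6 (0.89), Tmc8, Septin1, Septin6 and Tmem200b (0.86 to 0.88).

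**Figure D3:**
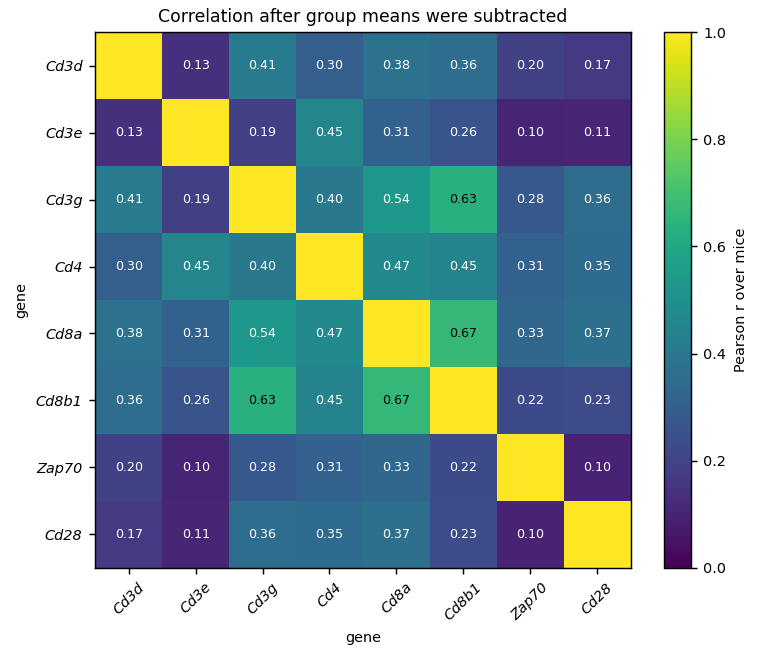
Pearson correlation over the mice of all 18 groups between 8 genes after each group's mean was subtracted. The highest value is 0.67 (Cd8a and Cd8b1), and Cd3e has 0.13 with Cd3d and 0.10 with Zap70.

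Of 97 measured genes in 8 lists of T cell signalling and T cell states, 14 were higher and 13 lower with crocidolite at 1 month (median -0.07 against -0.01 for all genes). In that comparison 2.93% of all genes were higher and 2.83% lower. Of 13 costimulatory and inhibitory receptors 6 rose and 2 fell (median 0.56). Tnfrsf9 (4-1BB, a receptor of activated T cells) rose by 2.10 ± 0.26 log2 units (adjusted p = 2.48e-10) and Pdcd1 (PD-1, an inhibitory receptor) by 1.25 ± 0.20 (adjusted p = 1.2e-06). Tnfrsf9 ran over 5.36, 6.37 and 7.13 in crocidolite lungs and over 3.81, 4.31 and 4.83 in DM lungs, with no overlap. Of 12 T lineage transcription factors 1 rose and 4 fell (median -0.25). Foxp3 changed by 1.19 ± 0.19 (adjusted p = 8.67e-07) and Ikzf3, a lymphocyte zinc finger factor, by -0.80 ± 0.22 (adjusted p = 0.0108). Foxp3 lay between 5.24 and 5.91 in 5 crocidolite mice and between 3.76 and 4.89 in 8 DM mice.

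Of 23 adaptors and proximal kinases 1 rose and 3 fell (median -0.21), among them Tespa1 (-0.74 ± 0.17, adjusted p = 0.00176) and Themis (-0.67 ± 0.20, adjusted p = 0.0282), both needed in the maturing thymocyte. Of 21 downstream genes 3 rose and 1 fell (median -0.03), with Malt1, a scaffold of NF-kB signalling, up by 1.00 ± 0.14 (adjusted p = 1.09e-08). Il2ra (the IL-2 receptor alpha chain) rose by 0.98 and Il7r (the IL-7 receptor) by 0.83, while Il2rb (the IL-2 receptor beta chain) changed by -0.59 and S1pr1 (the egress receptor) by -0.45. Pdcd1lg2, the ligand PD-L2, rose by 1.09 ± 0.21, the 1 of 5 ligands to do so. Of 7 naive and 12 regulatory or activated T cell genes 1 rose and 1 fell in each list. Of 4 genes listed for gamma delta T cells 0 rose and 1 fell. That gene was Blk (-0.735), which is also counted among the B cell genes below and so is not particular to these T cells. The 12 T cell receptor constant region genes are not analysed here. Without the arrays of low correlation 1 gene (Lef1) was lower and 6 were higher. The calls of Ikzf3, Tespa1, Themis, Il2rb, S1pr1 and Blk were lost there, as were the rises of Il7r and Pdcd1lg2. Il2rb was called in 18 and S1pr1 in 20 of 28 alternative fits. In DM lungs at 1 month S1pr1 stood at 9.20, above Cd3e at 7.60, and which cells it came from was not tested.

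Foxp3 stayed higher with crocidolite at 6 months (0.68 ± 0.17, adjusted p = 0.00529) and 12 months (0.62 ± 0.17, adjusted p = 0.011), as did Tnfrsf9 (0.78 ± 0.22 and 1.09 ± 0.23, adjusted p = 0.0269 and 0.000473). The 6-month Tnfrsf9 call was lost in 6 of 30 alternative fits, among them those without crocidolite replicate 1, 4 or 8 or DM replicate 7 (0.70 to 0.90 over all 30), and the 12-month call in 1 of 30. At 6 months 3 of the 97 genes were higher and 5 lower (1.45% and 2.23% of all genes), and at 12 months 6 and 8 (4.31% and 2.16%). Over the alternative settings those counts ran from 1 to 6 higher and 1 to 13 lower at 6 months, and from 1 to 10 higher and 0 to 16 lower at 12 months. The 12-month Foxp3 call was lost without crocidolite replicate 4 and within either set of arrays split by the word in the title, with values between 0.53 and 0.84 over the 30 alternative fits. With 80 µg MWCNT 12 genes were higher and 0 lower at 1 month (1.69% and 0.108% of all genes). They were led by Tnfrsf9 (1.75 ± 0.22, adjusted p = 2.59e-09) and Foxp3 (0.95 ± 0.17, adjusted p = 1.98e-05), with Cd80 (0.62 ± 0.18, adjusted p = 0.0405) and Pdcd1lg2 (0.66 ± 0.19, adjusted p = 0.0416) among the ligands. The Cd80 call held in 18 and the Pdcd1lg2 call in 19 of 31 alternative fits, and both were lost within either set split by the title word and without any of several single mice. At 6 months 1 was higher and 1 lower with 80 µg (0.803% and 0.131% of all genes), and at 12 months 0 and 0 (0.158% and 0.018%). In the 12-month MWCNT slope 0 rose and 5 fell (0.591% and 0.613% of all genes), among them Ikzf3 (-0.10 ± 0.03, adjusted p = 0.0227).

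**Figure D4:**
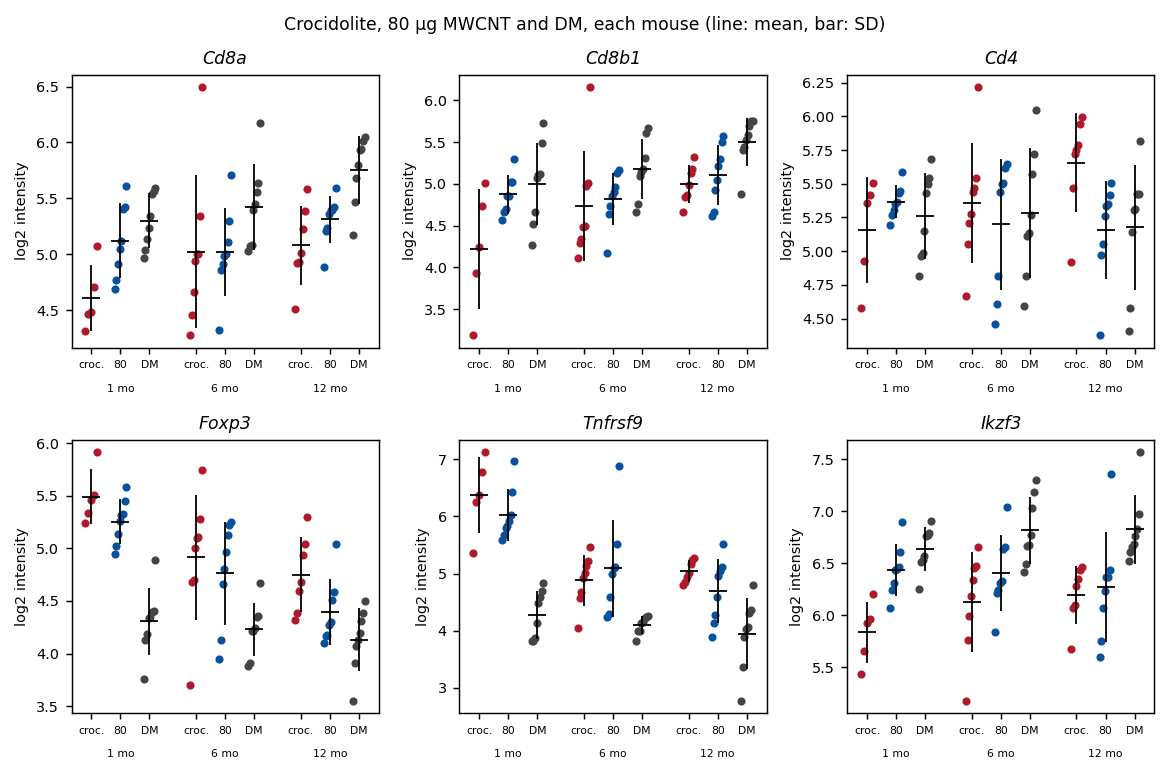
Log2 intensity of 6 genes in each mouse given crocidolite, 80 µg MWCNT or DM at 1, 6 and 12 months (left to right within each time); lines are means and bars SD. At 1 month all crocidolite and 80 µg mice are above every DM mouse in Foxp3 and Tnfrsf9, while Cd8a is lowest with crocidolite.

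Markers of NK and cytotoxic lymphocytes and of B cells moved beside the CD8 chains. Cytotoxic lymphocytes include the T cells that CD8 marks, so the NK and cytotoxic list is not separate from the CD8 chains. With crocidolite at 1 month 7 of 12 NK and cytotoxic genes fell and 0 rose (2.83% of all genes were lower and 2.93% higher). Among them were Ncr1 at -1.01 and Gzma at -1.06, chosen after their values were seen. The mean level of the 12 genes ran from 4.59 to 5.28 in crocidolite lungs and from 5.17 to 5.82 in DM lungs. Of 13 B cell genes 8 fell and 0 rose, with mean levels from 6.15 to 6.84 in crocidolite lungs and from 6.71 to 7.06 in DM lungs. Of 13 macrophage and monocyte genes 7 rose and 0 fell, with Mmp12 (also chosen after) up by 4.22 ± 0.40, with mean levels from 7.93 to 8.67 in crocidolite lungs and from 6.97 to 7.26 in DM lungs. The marker counts were not refitted without the arrays of low correlation, which include crocidolite replicates 4 and 5. Blk, of the B cell list, lost its call without those arrays. The part of these markers in the CD8 and Foxp3 differences was not tested. At 12 months 2 NK and cytotoxic genes and 2 B cell genes were lower and 8 macrophage genes higher with crocidolite (2.16% of all genes lower, 4.31% higher). With 80 µg at 12 months, where Cd3d was lower, 0 NK and cytotoxic and 0 B cell genes passed and 3 macrophage genes were higher (0.018% of all genes lower, 0.158% higher). The B cell level ran from 5.79 to 7.17 in 80 µg lungs and from 6.62 to 7.42 in DM lungs. The NK and cytotoxic level ran from 4.66 to 5.35 in 80 µg lungs and from 5.18 to 5.55 in DM lungs. Their part in the Cd3d difference was not tested.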

How the data were processed

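The authors deposited log2 expression values. The submitters' processing notes name RMA with the packages oligo and limma. Versions and a genome build: not given in the sources used here. Of 41345 features 23521 had a single gene symbol, and the brightest feature per gene left 22180 genes. The 2 arrays of mouse 101 (1 µg, 1 month) were averaged by their shared mouse number, though only 1 is titled replacement and their correlation of 0.976 was no higher than between different mice of the group (median 0.982). That they are 1 mouse rests on the label. Replicates are separately numbered mice. The number of arrays per group limits the precision. Values were fitted in limma 3.58.1 (R 4.3.3) with a mean per group and empirical Bayes moderation, checked on simulated data. Every adjusted p is 2-sided, by Benjamini-Hochberg over all genes. The members and gene lists were chosen with earlier results of these data known. Named pathway genes were drawn from the 2 largest changes past the test per list and comparison, and not all of those are named. Some are also given in other comparisons. The alternatives were quantile or median scaling, a filter on dim genes, feature averaging, trended moderation, fits of the groups alone, array weights, subsets of arrays (the thymocyte rule without Rag1, which had no single-symbol feature), title word, a spline over accession order and leaving out each of 92 mice. Arrays with high Acta1 or Krt4 were left out as an alternative chosen after seeing the data. Figures were drawn with matplotlib 3.10.9.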

Additional observations from a re-analysis of the deposited data

Results flagged for a closer look

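Of 144 sets of values (8 genes in 18 groups), 8 held a mouse far from the rest of its group by Dixon's 95% limit, and chance gives about 1 in 20. In DM at 12 months replicate 2 was low in Cd3g (6.10), Cd8b1 (4.88) and Zap70 (4.02). Its array was also among those of low correlation and of high Acta1. Replicate 4 of DM at 1 month was low in Cd3g (5.86). With 80 µg MWCNT at 12 months replicate 6 was high in Cd3d (4.82) and replicate 2 low in Cd4 (4.38). Both arrays with thymocyte genes stood high: 40 µg replicate 4 at 1 month in Cd8a (5.89) and crocidolite replicate 1 at 6 months in Cd8b1 (6.16). No cause was tested.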

How the results depend on the processing

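No called member reversed in any of 15 settings or with any of 92 mice left out. The 17 of 26 comparisons that kept their count of called members throughout had 0 called each time. Every comparison with a called member in the fit over all mice fell to 0 in some of these fits. No paired analysis was possible because replicate numbers follow accession order and only name mice. Members called with crocidolite at 1 month (2) fell to 1 in the groups alone, with array weights and without arrays with muscle or squamous genes, to 0 without arrays of low correlation and within arrays with or without the title word, and to between 0 and 2 with a mouse left out, and rose to 3 with accession order as a spline, where Cd3e was added. Crocidolite at 6 months (0) gave 2 without arrays with thymus genes and 0 to 2 with a mouse left out. Crocidolite at 12 months (1) gave 2 in the groups alone, with weights and without muscle or squamous arrays, 3 without low correlation, 0 within either set split by title word, and 1 to 3 with a mouse left out (3 without DM replicate 2). With 40 µg at 12 months (0) it was 1 with the dim filter, the word as covariate and arrays without it, 2 with weights, and 0 to 1 with a mouse left out. With 80 µg at 12 months (1) it was 0 with quantile normalization, in the groups alone and within arrays with the word, 1 (Cd3g in place of Cd3d) within arrays without it, 2 without low correlation, and 0 to 1 with a mouse left out. The 12-month slope (1) gave 2 with weights, a spline, and without low correlation or muscle or squamous arrays, 0 within either set split by title word, and 1 to 2 with a mouse left out. DM at 12 against 1 month (0) gave 1 with weights, a spline and without muscle or squamous arrays, 2 without low correlation, and 0 to 1 with a mouse left out. In the fit over all mice 151 of 22180 genes were higher and 97 lower in that comparison. DM at 12 against 6 months (1) gave 0 with median centring, in the groups alone and with a spline, 2 with weights and without low correlation, and 0 to 1 with a mouse left out (10 of 16 mice ended the call). Between 80 µg and crocidolite at 1 month (0) it was 0 to 1 with a mouse left out. These counts stand without the share of all genes called under each setting, so they do not show a change particular to the members. The causes were not tested. Of the 97 pathway genes with crocidolite at 1 month 6 to 14 were higher and 0 to 14 lower over the settings, with 80 µg at 1 month 2 to 15 were higher, and the crocidolite counts at 6 and 12 months moved as widely. These pathway counts too stand without the share of all genes under each setting.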
